A study of Mus musculus with 2 samples.

Results

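The 10 genes described here carry out or control the making of steroid hormones in Leydig cells, the endocrine cells that lie between the seminiferous tubules of the testis. They were chosen by name, from the receptor for luteinizing hormone to the enzymes of testosterone and estradiol, and all 10 were found by their Entrez gene IDs among 44002 rows of the deposited table. The libraries came from BALB/c mouse testes taken at postnatal day 45. The control group carries no treatment label, and the other group was exposed to bisphenol A (BPA), a building block of plastics that can act like an estrogen; no source used here gives its dose, route or duration. Material from 3 samples per group was mixed before sequencing, so each group is 1 library, variation between animals was not measured, and no difference below has a replicate check or a test between the conditions.

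In the adult testis, luteinizing hormone from the pituitary binds its receptor on Leydig cells and raises cyclic AMP. That signal brings cholesterol to the inner mitochondrial membrane, where its side chain is cut off to give pregnenolone. Enzymes of the endoplasmic reticulum then turn pregnenolone into progesterone, androstenedione and testosterone, and aromatase can turn testosterone into estradiol. Leydig cells also secrete the peptide hormone INSL3, and the nuclear receptor NR5A1 (also called SF-1) is known to activate many of these genes.

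Levels are in CPM, reads scaled to a common library total. They were deposited in columns headed as read counts, and 1 CPM stood for 45.4 reads under BPA and 41.8 in the control. The bracketed interval beside a ratio is an exact 95% Clopper-Pearson interval from the reads. It covers counting error only and holds no spread between animals. It treats every read as independent, so PCR copies among the reads would make it too narrow. Such an interval excluded 1 for 43.1% of the 19389 genes that reached the floor, set at 1 CPM for whichever library was higher. The share was 44.9% for genes with a mean of 10 to 100 CPM and 61.5% for those at 100 CPM or more, so a ratio beyond counting error was common between these libraries. In whole testis, a different number of Leydig cells and a different amount of RNA per Leydig cell cannot be told apart, whether a level is higher or lower.

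All 10 genes were less than 2-fold apart between the libraries, and the widest contrast lay between the paired 3β-hydroxysteroid dehydrogenase genes, which stood on opposite sides of equality. With BPA, Hsd3b6 stood 1.75-fold higher (1.62 to 1.89) and Hsd3b1 1.28-fold lower (1.23 to 1.33). Star, the cholesterol carrier, was 1.35-fold higher (1.29 to 1.42). The other 7 genes, from Lhcgr to Nr5a1, lay between 1.00 and 1.21 times the control level. None of the 10 reached a 2-fold difference in either direction, where 3.28% of all genes at the floor did so (1.32% higher with BPA and 1.95% lower). Of genes with a mean of 10 to 100 CPM, as for 6 of the members, 0.858% were 2-fold apart, and of those at 100 CPM or more, as for 3 members, 0.0833%. Before this count it was known that the members lie within 2-fold, and none of 10 is close to these shares.

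Because Hsd3b1 and Hsd3b6 are close relatives, their sequences set how far reads can tell them apart. On GRCm38 both lie on chromosome 3 on the minus strand, Hsd3b6 (gene ID 15497) from 98805504 to 98814443 and Hsd3b1 (gene ID 15492) from 98842356 to 98859794, with 27.9 kb between them. Their coding sequences in GENCODE are both 1122 bases long and differ at 112 bases, an identity of 90.0%. The 60 coding bases with the most differences run from base 94 to base 153 counted from the start codon. They are printed 5′ to 3′ with the 15 differing bases in capitals.
Hsd3b1: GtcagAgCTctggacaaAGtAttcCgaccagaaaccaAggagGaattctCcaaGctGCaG
Hsd3b6: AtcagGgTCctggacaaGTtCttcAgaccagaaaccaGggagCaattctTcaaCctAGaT
Differences in this stretch are spread along its whole length, so a read covering it carries several of them. The longest coding run that both genes share without a difference is 72 bases, from base 250 to base 321, and a read that fits within it belongs to either gene.
Hsd3b1 and Hsd3b6: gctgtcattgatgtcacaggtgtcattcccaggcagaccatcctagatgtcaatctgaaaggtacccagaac
Of all windows of 50 coding bases, 3.54% were identical between both genes. Across whole transcripts, 15.7% of the 50-base words of Hsd3b6 also occur in genes at other loci, most often in Hsd3b3, and 4.86% of those of Hsd3b1, most often in Hsd3b6. No label says how reads with several matches were counted, so part of the reads of both genes is uncertain.

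The 100 bases before the start sites of these neighbours, from RefSeq on GRCm38.p6, are printed here. How alike the flanking sequences are was not measured. Capitals mark AGATAA, a short word bound by GATA factors.
Hsd3b1, chr3:98859795-98859894, minus strand: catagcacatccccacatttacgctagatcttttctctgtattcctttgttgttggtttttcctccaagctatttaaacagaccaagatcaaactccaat
Hsd3b6, chr3:98814444-98814543, minus strand: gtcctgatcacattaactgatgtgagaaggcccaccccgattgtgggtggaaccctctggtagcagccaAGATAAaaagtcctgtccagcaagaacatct
The word AGATAA begins 31 bases before the start of Hsd3b6. In Hsd3b1 its reverse, TTATCT, begins 134 bases before the start, outside the printed stretch. On either strand AGATAA occurs within 250 bases before the start in 9.99% of 32851 promoter windows. For the NR5A1 word CAAGGTC, found in 3.32% of the windows, the members held 1 match, 137 bases before the start of Insl3. The overlapping word AAGGTCA, found in 4.08%, was not in these letters in any of the 10 windows available for 7 members. The GATA word TGATAA (7.94%) and the cyclic AMP word TGACGTCA (1.55%) were also not in these windows. Star, Cyp17a1 and Nr5a1 had no window, so none of these words was searched there. Cyp19a1 and Cyp11a1 had more than 1 window each.

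The pathway starts with Lhcgr, the luteinizing hormone receptor (gene ID 16867, chromosome 17 from 88716384 to 88792059). It stood at 17.3 CPM under BPA and 14.4 CPM in the control, on 787 and 601 reads. The BPA library was 1.21-fold higher (1.08 to 1.34), a difference of 0.27 on the log2 scale. Of the 5130 genes between 0.5 and 2 times its mean level, 18.9% were as far apart. Its log2 ratio lies inside the range of -0.27 to 0.30 which held the middle of all genes with a mean of 10 to 100 CPM, from the 5th to the 95th percentile. Star, which moves cholesterol across the mitochondrial membranes in response to the hormone (gene ID 20845, chromosome 8 from 25808474 to 25815982), stood at 95.9 CPM under BPA against 70.9 CPM in the control, on 4350 and 2965 reads. Its log2 ratio of 0.43 lay above that range. Of the 3409 genes between 0.5 and 2 times the mean level of Star, 1.58% were as far apart or farther, in either direction.

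**Figure D1:**
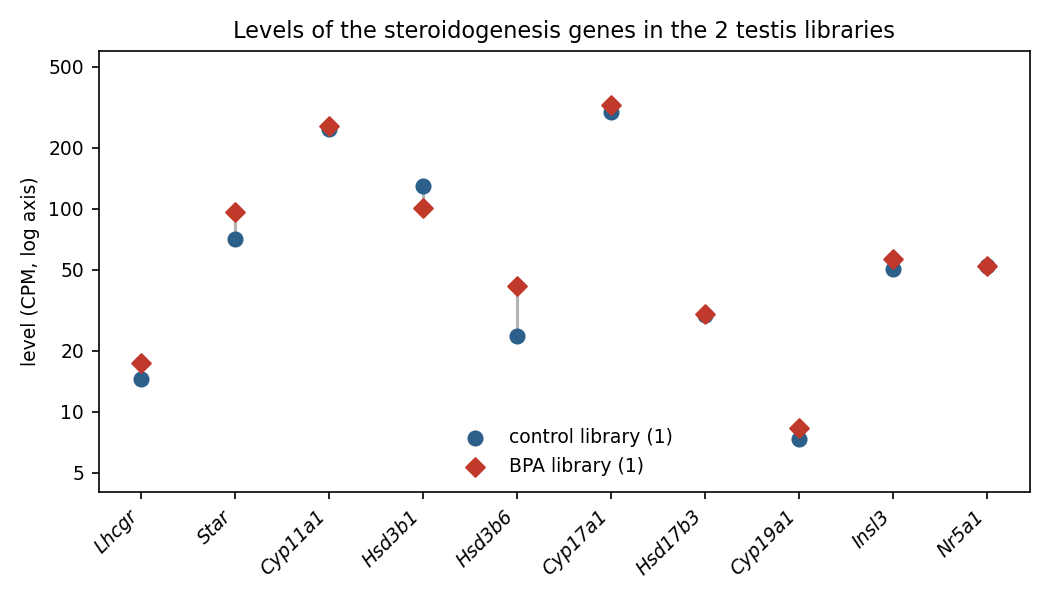
Level of each of the 10 genes in CPM (vertical, log axis) in pathway order, with a circle for the control library and a diamond for the BPA library, 1 pooled library each. The symbols nearly coincide for Cyp11a1, Cyp17a1, Hsd17b3 and Nr5a1, while Star (70.9 and 95.9 CPM), Hsd3b1 (129 and 101 CPM) and Hsd3b6 (23.6 and 41.4 CPM, control first) are visibly apart.

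The enzyme that commits cholesterol to steroids was close to equal. Cyp11a1, the side-chain cleavage enzyme (gene ID 13070, chromosome 9 from 57998024 to 58027031), stood at 256 CPM under BPA and 246 CPM in the control, 1.04-fold higher (1.02 to 1.07). Star and Cyp11a1 act in sequence at the mitochondrion, and their ratio was 0.374 under BPA and 0.289 in the control. Star therefore took 27.2% of their summed CPM in the BPA library (26.5 to 27.9%) against 22.4% in the control library (21.7 to 23.1%), intervals that do not overlap.

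The next step, from pregnenolone to progesterone, is shared by several isozymes in the mouse, of which Hsd3b1 is made by Leydig cells and the adrenal gland, and Hsd3b6 is a mark of adult Leydig cells. Hsd3b1 stood at 101 CPM under BPA against 129 CPM in the control, on 4590 and 5402 reads. It was the single member below the control level, at a log2 ratio of -0.35. Of the 2854 genes within 0.5 to 2 times its mean level, 1.82% were as far apart. Hsd3b6 stood at 41.4 CPM under BPA against 23.6 CPM in the control, on 1877 and 987 reads. It was the single member 1.5-fold or more apart, at a log2 ratio of 0.81. Differences of 1.5-fold or more were found for 9.64% of all genes at the floor (4.27% higher with BPA and 5.37% lower), for 2.05% of the 7578 genes with a mean of 10 to 100 CPM (0.963% higher) and for 0.5% of those at 100 CPM or more. Of the 4618 genes within 0.5 to 2 times the mean level of Hsd3b6, 0.974% were as far apart.

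Set against each other, the isozymes gave the largest contrast within the pathway, 1.16 on the log2 scale. Hsd3b6 took 29.0% of their summed CPM in the BPA library (27.9 to 30.1%) and 15.4% in the control library (14.6 to 16.4%). The sum itself was 142.5 CPM under BPA and 152.8 CPM in the control, a ratio of 0.932 (0.901 to 0.965). The summed level of this step was nearer to equality than either isozyme, but its interval excluded 1. The ratio of a sum always lies between the ratios of its parts. The authors' deposited table gives Hsd3b6 a p-value of 0.026 and a q-value of 0.99996. It gives Hsd3b1 a p-value of 0.0668 and Star a p-value of 0.0511, with the same q-value in the authors' deposited table. None of the 10 genes is among the 28 that the authors' deposited table marks as different.

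**Figure D2:**
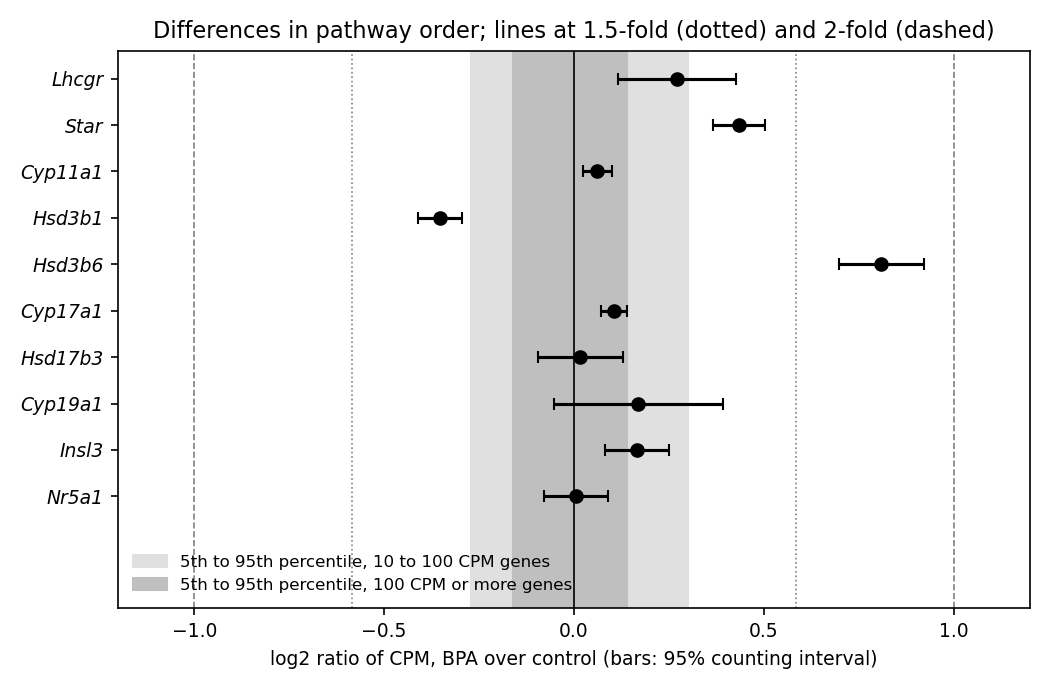
Ratio of BPA over control CPM on a log2 axis for the 10 genes in pathway order, with bars for the 95% counting interval and grey bands for the 5th to 95th percentile of all genes with a mean of 10 to 100 CPM (light) or 100 CPM or more (dark). Star and Hsd3b6 lie to the right of both bands and Hsd3b1 to the left of both. All 10 points stay between the dashed lines at 2-fold.

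Cyp17a1, which makes androgen precursors by its hydroxylase and lyase activities (gene ID 13074, chromosome 19 from 46667165 to 46673000), was the most abundant of the 10 in CPM. It stood at 323 CPM under BPA and 301 CPM in the control, 1.08-fold higher (1.05 to 1.10). Its ratio to Cyp11a1, the enzyme earlier in the pathway, was 1.26 and 1.23 in the same order. Hsd17b3, which reduces androstenedione to testosterone (gene ID 15487, chromosome 13 from 64058274 to 64089262), stood at 30.2 CPM against 29.9 CPM, a ratio of 1.01 (0.936 to 1.09). The final enzyme of testosterone synthesis was thus at the same level in both libraries within counting error, and a difference of more than 1.09-fold upward lay outside its interval.

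Cyp19a1, the aromatase that forms estradiol and that germ cells of the testis express as well as Leydig cells (gene ID 13075, chromosome 9 from 54165937 to 54268164), was the lowest of the 10. It stood at 8.29 CPM under BPA and 7.37 CPM in the control, on 376 and 308 reads. The ratio was 1.12 (0.965 to 1.31), so no difference could be detected at this depth. Its ratio to Hsd17b3, the enzyme of the preceding step, was 0.274 under BPA and 0.247 in the control. The intervals of the corresponding shares, 19.6 to 23.5% and 17.8 to 21.8%, overlap.

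Insl3, the peptide hormone of Leydig cells that guides testis descent (gene ID 16336, chromosome 8 from 71689252 to 71690577), stood at 56.8 CPM under BPA and 50.7 CPM in the control, a ratio of 1.12 (1.06 to 1.19). In GENCODE, 64.8% of its exon bases are also exon bases of Jak3 on the same strand, so the source of part of its reads is uncertain; Jak3, a cytokine receptor kinase, stood at 18 and 18.6 CPM. Nr5a1, the transcription factor (gene ID 26423, chromosome 2 from 38692656 to 38714542), stood at 52.4 CPM against 52.2 CPM, on 2376 and 2181 reads, with a log2 ratio of 0.01. Sertoli cells also express Nr5a1, so its level is not that of Leydig cells alone.

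Across the 10 genes, 9 log2 ratios lay above 0 and the median was 0.13, where 50.9% of all genes at the floor lay above 0 with a median of 0.00. The share above 0 was 53.9% for genes with a mean of 10 to 100 CPM and 44.6% for those at 100 CPM or more. By counting error, 6 ratios lay above 1 and 1 below, while the intervals of Hsd17b3, Cyp19a1 and Nr5a1 held 1. Such intervals excluded 1 for 43.1% of all genes at the floor. For genes with a mean of 10 to 100 CPM this was 44.9%, and for those at 100 CPM or more 61.5%. The 10 genes summed to 983.1 CPM under BPA and 924.7 CPM in the control, a ratio of 1.06 (1.05 to 1.08). Without Hsd3b1 and Hsd3b6, the ratio of the other 8 together was 1.09 (1.07 to 1.11). Most of that sum belonged to Cyp17a1 and Cyp11a1, which took 32.9% and 26.1% in the BPA library and 32.5% and 26.6% in the control library. Hsd3b1 took 10.3% of the sum in the BPA library (10 to 10.6%) and 14% in the control library (13.6 to 14.3%). Star took 9.75% (9.48 to 10%) and 7.67% (7.41 to 7.94%) in the same order, and Hsd3b6 4.21% (4.02 to 4.4%) and 2.55% (2.4 to 2.72%). The make-up of the set differed beyond counting error at these members, and the intervals of the other 7 shares overlapped.

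**Figure D3:**
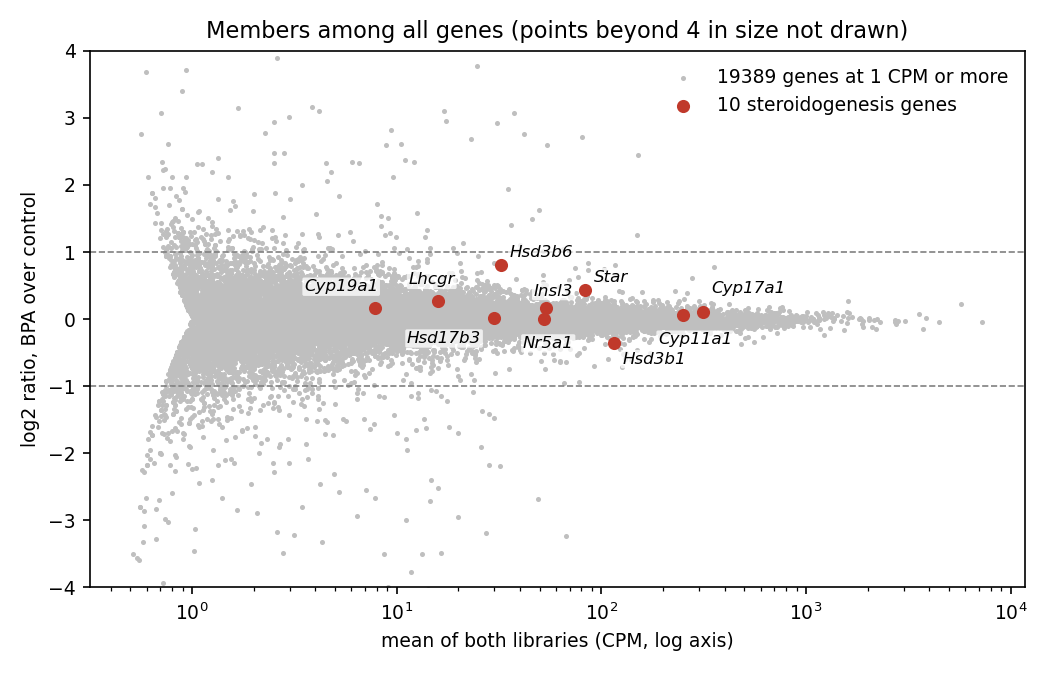
Log2 ratio of BPA over control (vertical, with a pseudocount of 0.1 CPM) against the mean of both libraries in CPM (horizontal, log axis) for the 19389 genes at the floor in grey and the 10 steroidogenesis genes in red; points beyond 4 in size are not drawn. Hsd3b6 and Star sit at the upper edge of the grey cloud at their level and Hsd3b1 at its lower edge, while the other 7 lie within it.

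Per kilobase of annotated exon, which allows levels of different genes to be compared, the order in the control library was Cyp17a1 (109 CPM per kb), Insl3 (81.4), Hsd3b1 (69.7), Cyp11a1 (51.1), Hsd17b3 (21.5), Star (17.2), Hsd3b6 (13.1), Nr5a1 (12.3), Lhcgr (1.88) and Cyp19a1 (1.63). In the BPA library Hsd3b1 and Cyp11a1 came level, at 54.5 and 53.3 CPM per kb, and Star (23.3) and Hsd3b6 (23.0) stood beside Hsd17b3 (21.7). The order depends on the length used: with the longest protein-coding transcript in place of all exons, Cyp11a1 stood at 116 CPM per kb in the control library, next to Cyp17a1 at 125. The receptor and aromatase were at the bottom of the order by either length.

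The genes around these steps were examined through lists chosen with earlier results of these libraries known, and each list is described by its counts and median. Beside them stand the values over all genes at the floor: a median of 0.00, 3.28% of genes 2-fold apart, and 4.27% of genes 1.5-fold higher and 5.37% lower. Among 28 genes of luteinizing hormone signalling through cyclic AMP, 1 was 2-fold lower in the BPA library, 0 were higher, and the median log2 ratio was 0.05; 1 of 28 is close to the 3.28% of all genes that were 2-fold apart. Arrb2, an arrestin that uncouples receptors, stood at 2.27 CPM against 4.83 CPM, 2.13-fold lower (1.67 to 2.73). Gnas, the stimulatory G protein (143 and 137 CPM), and Prkaca, a catalytic subunit of protein kinase A (131 and 124 CPM), were near equal. The cyclase genes Adcy9 and Adcy6 had log2 ratios of 0.44 and -0.38, and the arrestin gene Arrb1 one of 0.37. Most of these genes are active in many testis cells, so their levels are not those of Leydig cells.

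All 24 genes of cholesterol delivery were at the floor, and none was 2-fold apart. Stard4, a soluble cholesterol carrier, stood at 15.6 CPM under BPA against 9.74 CPM in the control, 1.61-fold higher (1.42 to 1.82), and was the single gene of the list 1.5-fold or more apart. Stard5, a relative of it, had a log2 ratio of 0.47, Nceh1, a cholesterol ester hydrolase, 0.39, and Npc1, which exports cholesterol from lysosomes, -0.49. Scarb1, which takes up high density lipoprotein cholesterol, stood at 74.5 and 74.1 CPM, and the outer membrane protein gene Tspo at 7.76 and 9.19 CPM. Exons of Stard5, Tspo and Npc1 overlap those of another gene. The list's median was 0.05.

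The mitochondrial and microsomal P450 enzymes need electron donors. Of 15 such genes, 14 were at the floor and none was 1.5-fold apart, with a median of 0.04. Fdx1, the ferredoxin that serves Cyp11a1, stood at 53.4 CPM under BPA and 45.8 CPM in the control, 1.17-fold higher (1.1 to 1.24). Its reductase Fdxr went the other way, at 47.1 and 53.0 CPM, 1.13-fold lower (1.06 to 1.19). Por, the reductase that serves Cyp17a1 and Cyp19a1, stood at 29.7 and 27.0 CPM. Cyb5a, which favours the lyase reaction of Cyp17a1, stood at 22.3 and 24.6 CPM, and Cyb5b at 81.7 and 75 CPM. The intervals of Por, Cyb5a and Cyb5b also excluded 1, as did those of 43.1% of all genes at the floor. Pgrmc2 and H6pd had log2 ratios of -0.17 and 0.27.

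Of 31 further steroid-converting enzymes, 30 had a row in the table, 15 were at the floor and 0 were 1.5-fold apart in either direction, with a median of 0.09. Sult1e1, the estrogen sulfotransferase of Leydig cells, stood at 17.3 CPM under BPA against 22.9 CPM in the control, 1.32-fold lower (1.2 to 1.45). Hsd17b7 had a log2 ratio of 0.40. Srd5a1, which makes dihydrotestosterone, stood at 12.5 and 13.0 CPM, and Hsd17b12 at 19.6 and 18 CPM. Hsd17b2 and Akr1c12, at log2 ratios of -0.52 and -0.37, were near 1 CPM, with intervals that held 1. Hsd3b2 and Hsd3b3 were listed at 0 or without a value in both libraries. A listed 0 means under 1 CPM.

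The transcription factors of Leydig cells had a median of -0.05 over 24 genes at the floor, of which 0 were 1.5-fold higher, against 4.27% of all genes, and 2 were lower, against 5.37%. Both lower ones were near the floor, with the value under 1 CPM filled from the deposited fold change: Nr4a2, an immediate early nuclear receptor, at 0.463 and 1.48 CPM, and the coactivator gene Ppargc1a at 0.639 and 1.10 CPM. Nr0b1 (DAX-1), which represses NR5A1, stood at 23.0 CPM under BPA against 16.3 CPM in the control, 1.41-fold higher (1.28 to 1.55). Gata4, an activator of Star and other members, stood at 28.8 against 21.4 CPM, 1.35-fold higher (1.24 to 1.47). Both are expressed in Sertoli cells as well. Nr4a1, an activator that responds to luteinizing hormone, stood at 70.1 and 73.3 CPM.

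The labelled tissue and cell type were checked through markers. Other markers of adult Leydig cells reached the floor for 16 of 17 genes; their median was 0.13, the same as for the 10 members, and they summed to 1069 CPM under BPA and 1017 CPM in the control; this list shares Fdx1, Fdxr, Por, Cyb5a, Scarb1, Sult1e1 and Hsd11b1 with the lists above. Of these 16 genes, 11 lay above 0. Ptgds, a prostaglandin D synthase, stood at 93.1 against 60.3 CPM, 1.54-fold higher (1.47 to 1.62), and Cyp2d22 had a log2 ratio of 0.30. Fabp3 had a log2 ratio of 0.40, but the interval of its ratio held 1 (0.994 to 1.82). Sult1e1, Fdxr and Cyb5a went the other way, at log2 ratios of -0.40, -0.17 and -0.14. Hsd11b1 was listed at 0 in both libraries. Fetal and progenitor markers reached the floor for 9 of 14 genes, and their median was 0.05. Thbs2 and Mc2r of fetal Leydig cells were listed at 0 in both libraries. Ptch1, the hedgehog receptor, stood at 13.3 and 8.52 CPM (1.56-fold higher, 1.36 to 1.78), and Nes, Wnt5a and Pdgfa had log2 ratios of 0.58, 0.40 and -0.21.

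**Figure D4:**
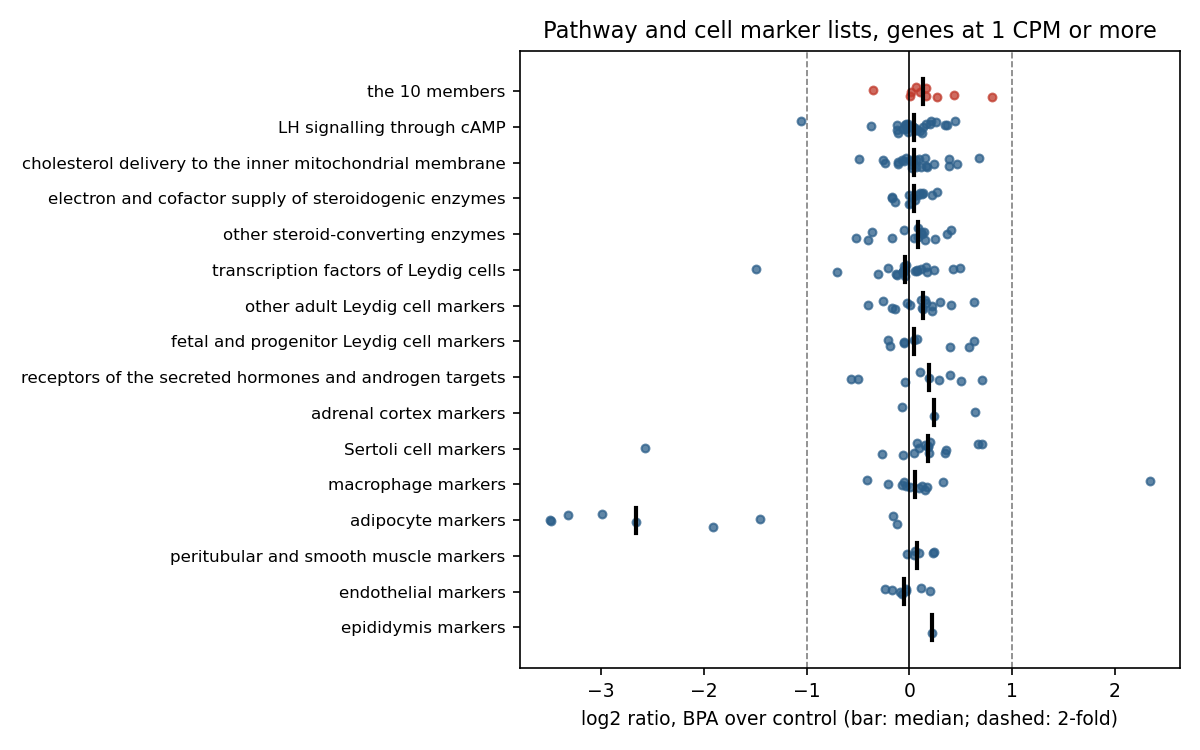
Log2 ratio of BPA over control (horizontal) for each gene at 1 CPM or more in the 10 members (red) and in 15 pathway and cell marker lists (blue), with a bar at each median and dashed lines at 2-fold. The members and the other adult Leydig cell markers share a median of 0.13, and the adipocyte markers stand far to the left, at -2.67.

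Marker lists of other cells were set beside these values; the part of Sertoli, fat and macrophage RNA in the values above was not tested. Sertoli cell markers, all 15 at the floor, had a median of 0.18 and 12 lay above 0, so they leaned the same way as the members; 0 were 2-fold higher and 1, Rhox8, was lower, at 1.43 against 9.04 CPM, a log2 ratio of -2.58, with Fshr, Shbg and Amh at log2 ratios of 0.67, 0.71 and 0.36. Of 9 adipocyte markers, 7 were 2-fold or more lower in the BPA library, and the list summed to 29 CPM against 98.7 CPM; Fabp4, Cidec, Cfd and Car3 had log2 ratios of -3.50, -3.49, -3.32 and -2.99. Macrophages, which lie against Leydig cells, had a median of 0.05 over 12 markers, and their sum of 143 against 119 CPM owed much to Aif1 (20.4 and 3.95 CPM), while C1qc, Cd68 and Ptprc had log2 ratios of 0.33, -0.41 and -0.20. Peritubular markers (6 at the floor, led by Acta2 at 0.24 and Myh11 at 0.23) had a median of 0.07 and endothelial markers (8, with Kdr at -0.24 and Cdh5 at 0.20) one of -0.05. Of the adrenal cortex markers, Cyp11b1 and Mc2r were listed at 0 in both libraries, and Cyp11b2 at 0 or without a value. Cyp21a1 stood at 1.04 and 0.861 CPM, so the adrenal enzyme genes Cyp11b1 and Cyp21a1 were under or about 1 CPM. Akr1b7 stood at 2.03 and 2.13 CPM, and Mrap, an accessory protein of melanocortin receptors, at 15.5 and 9.86 CPM. Of 8 epididymis markers 1 was at the floor, Cst12, at 59.7 and 51.1 CPM, and the other 7 were listed at 0 or without a value.

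Receptors and targets of the secreted hormones gave a median of 0.20 over the 9 of 11 genes that reached the floor, with 0 genes 2-fold apart and 1, Shbg, 1.5-fold higher. The estrogen receptor gene Esr1 stood at 5.42 CPM under BPA and 4.09 CPM in the control. Rhox5, an androgen-induced gene of Sertoli cells, stood at 5.33 against 3.73 CPM, 1.43-fold higher (1.16 to 1.76). Rxfp2, the receptor of INSL3, stood at 5 against 7.13 CPM, 1.43-fold lower (1.2 to 1.7), and Fkbp5, an androgen and glucocorticoid target, at 5.75 against 8.59 CPM. The androgen-regulated genes therefore lay on both sides of equality.

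Position was examined because Hsd3b1 and Hsd3b6 are neighbours. Within 1 Mb of Hsd3b1, 13 other genes were at the floor, and Tbx15, near the floor at 0.485 against 1.12 CPM, was the single one 2-fold apart. Hao2, 14.7 kb from Hsd3b1, had a log2 ratio of 0.39. Around Insl3, 4 of 54 genes were 2-fold higher and 1 lower, namely Mast3, Pik3r2, Iqcn and Nxnl1 and, lower, Arrdc2; 4 of these 5 lay 850 kb or more away. Within 1 Mb of the other members, Gm38460 near Lhcgr, Plekha2 near Star and Hcn4 near Cyp11a1 were 2-fold apart, all with a level of 2.91 CPM or less. No gene was 2-fold apart within 1 Mb of Cyp17a1, Hsd17b3, Cyp19a1 or Nr5a1, against 3.28% of all genes at the floor.

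**Figure D5:**
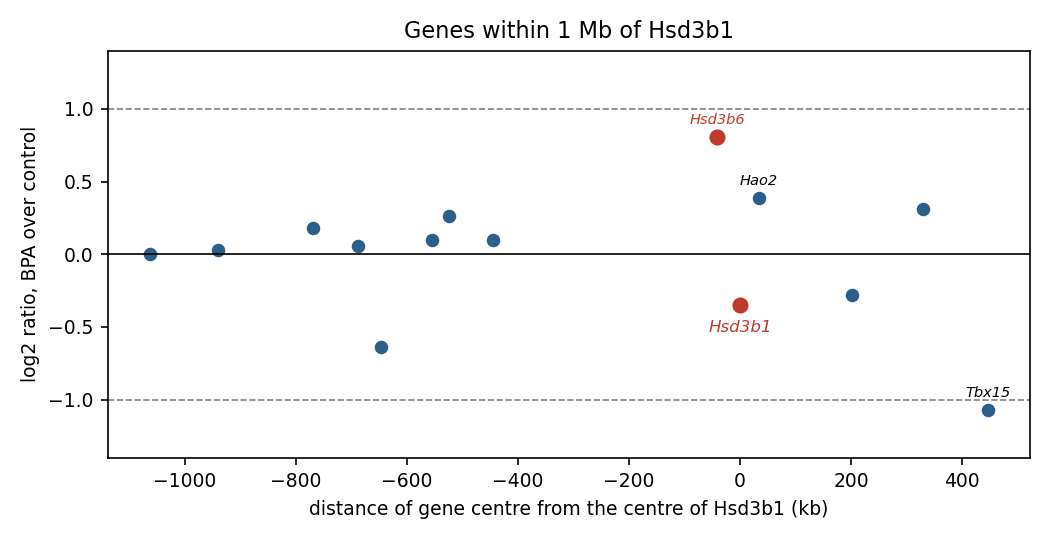
Log2 ratio of BPA over control (vertical) for the genes at the floor within 1 Mb of Hsd3b1, by the distance in kb of each gene's centre from that of Hsd3b1 (horizontal), with the Hsd3b genes in red, names only at genes given in the text, and dashed lines at 2-fold. Hsd3b6 (0.81) and Hsd3b1 (-0.35) stand apart in opposite directions, and the nearest other gene, Hao2, lies at 0.39.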

How the data were processed

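Poly(A) RNA of whole testis was sequenced after Trizol extraction, oligo(dT) selection, fragmentation and random priming, per the labels' protocols, with no step that marks the strand described. HISAT2 2.0.4, HTSeq 0.6.1 and the build mm10 are named in the submitters' processing notes; no source used here gives the annotation, strand setting or scaling. The authors deposited CPM values (summing to 995266 for BPA and 997834 for the control), log2 fold changes, p-values and q-values. Deposited CPM under 1 are written as 0; 1404 of these were filled from the deposited log2 fold change. All CPM values above 0 (100%) were whole multiples of 1 step per library within 0.01 step (0.0220 CPM for BPA, 0.0239 CPM for control), taken as 1 read, giving 45162887 and 41711330 reads.

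Ratios were taken, for genes whose higher library reached 1 CPM, as log2((BPA + 0.1)/(control + 0.1)), called at 2-fold and 1.5-fold, with Python 3.11.15 and scipy 1.17.1. Ratios beside a gene hold no pseudocount. No count model was fitted. Members and lists were chosen with earlier results of these data known. Named are all members, the 4 largest log2 ratios in size per list (a selection among those in the cell marker lists), a set of pathway partners named whatever their value (1 is not reported here), and genes within 1 Mb that were 2-fold apart; a few further genes (Jak3, Hao2, Hsd3b2 and Hsd3b3) were chosen after their values were seen. Positions are RefSeq on GRCm38, the build mm10 names; exons and words of 50 bases came from GENCODE. Coding sequences stood in for a planned comparison of proteins. RefSeq promoters matched 7 of 10 members.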

Additional observations from a re-analysis of the deposited data

How the results depend on the processing

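No paired analysis was possible because each group has 1 library, and for the same reason no replicate could be left out. The counts of members 2-fold or 1.5-fold apart were the same under all 9 alternatives, the median of the members lay between 0.13 and 0.14, and Hsd3b6 lay between 0.78 and 0.81, Star between 0.43 and 0.44 and Hsd3b1 between -0.36 and -0.35; scaling moved all log2 ratios by at most 0.004. Counts over all genes depended on the low end, and the cause was not tested beyond what each setting changes. At 2-fold, 256 genes were higher and 379 lower, which became 167 and 245 with a mean of 1 CPM as the floor, 80 and 103 when the floor was 4 CPM, 82 and 123 when the pseudocount was 1 CPM, 100 and 162 by the nearer bound of the counting interval, and 686 and 937 with values written as 0 taken as 0. At 1.5-fold, 828 higher and 1042 lower became 254 and 268 at the 4 CPM floor, 364 and 474 at the 1 CPM pseudocount, and 251 and 345 by the nearer bound. An exact binomial test on the reads, which compares the libraries and not the conditions, called 6742 genes (34.8%) and 7 of the 10 members after Benjamini-Hochberg adjustment at 0.05. Levels per kb with the longest transcript were added after seeing the data. Depth left no detectable difference for Cyp19a1, and reads shared by Hsd3b genes or by Insl3 and Jak3 cannot be resolved here.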
